A study of Mus musculus with 11 samples.

Results

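RNA was measured in the hearts of 5 Pde2A-/- and 6 Pde2A+/+ mouse embryos at E14.5, and this account follows the 9 genes for the subunits of the hypoxia-inducible factors (HIF) and for the enzymes that tie HIF to oxygen, out of 55487 gene identifiers counted. The genes are Hif1a, Epas1, Hif3a and Arnt for the subunits, Egln1, Egln2 and Egln3 for the prolyl hydroxylases, Vhl for the recognition subunit of the ubiquitin ligase and Hif1an for the asparaginyl hydroxylase. They are taken by their symbols, with no threshold on a measured value, and all 9 were among the 24177 genes with enough reads to be tested. Each library came from the heart of a single embryo of the line B6;129P2-Pde2A tm1Dgen, in which the gene for the cAMP and cGMP hydrolysing phosphodiesterase 2A is disrupted in every cell rather than in the heart alone. The embryos came from matings of heterozygous mice, hearts of both sexes were used, and the sex and litter of a heart are not labelled. Embryos of this knockout are described as anaemic with a small liver. Replicates are named as labelled: A, B, 14, D and 15 for Pde2A-/- hearts, and 7, 11, 6, 8, H and E for Pde2A+/+ hearts.

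HIF is a dimer of an oxygen-labile alpha subunit, encoded by Hif1a, Epas1 or Hif3a, and a stable beta subunit, encoded by Arnt. When oxygen is present the prolyl hydroxylases (PHD) mark the alpha subunit, the VHL protein binds the marked form and the ligase sends it to the proteasome, while the asparaginyl hydroxylase blocks the binding of coactivators. When oxygen is low the alpha subunit stays, pairs with ARNT and raises genes of glycolysis, vessel growth and red cell formation, Egln1 and Egln3 among them. The control acts mostly on the protein, which was not measured here.

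Between 35865537 and 42835382 reads per heart lay on the sense strand of a gene. Pde2a itself had between 0 and 2 reads in each heart, and so had Gm45837, a gene that overlaps it. Reads on both genes are counted for neither. These counts therefore do not show whether Pde2a was transcribed, and they did not check the genotype labels. The summed level of 9 cardiomyocyte genes overlapped between the genotypes, at 33892 to 41333 CPM (counts scaled to a common library size) in Pde2A-/- and 33239 to 44206 in Pde2A+/+ hearts. Single genes of the list went opposite ways by edgeR's quasi-likelihood test. Ttn had a log2 fold change of -0.51 (adjusted p = 0.0119) and Nppa 0.87 (adjusted p = 0.00999). The other 7 did not pass an adjusted p under 0.05. The 5 thymus genes summed to 65.5 CPM in the highest Pde2A+/+ heart, replicate 7, against at most 3.19 in any Pde2A-/- heart, and 3 lung genes summed to 15.4 and 25.8 CPM in Pde2A+/+ replicates 7 and 11 against at most 2.07 elsewhere. Liver genes summed to between 39.6 and 117 CPM in Pde2A+/+ replicates 11, H and E and Pde2A-/- replicate D, and to at most 7.49 in the others. Skeletal muscle genes summed to 80.5 and 98.2 CPM in Pde2A-/- replicates B and D, and to at most 23.8 in the others. Each heart was left out in turn, and Pde2A+/+ replicates 7 and 11 also together. No batch is given in the labels.

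The stretches before the start sites of 8 members were read first for ACGTG, a form of the core that HIF binds. They were read because the PHD genes differ in how they moved. The sequences are from RefSeq (GRCm38.p6), no entry was held for Epas1, and Egln2 has 2 start sites. The letters ACGTG, searched on both strands in the 250 bases before the start, lay before 4 of the 8 genes, Egln1, Egln2, Egln3 and Hif1a, and before 16.6% of all 32851 RefSeq starts in the table. The form GCGTG was not searched, so a gene not named here may still hold a core. The sites are printed with 12 bases on each side, turned so that the core, in capitals, reads ACGTG.
Egln3, chr12:54204087-54204115, minus strand: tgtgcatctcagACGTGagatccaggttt
Egln1, chr8:124949306-124949334, minus strand: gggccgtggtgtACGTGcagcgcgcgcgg
Egln2, chr7:27166834-27166862, minus strand: agcctcctgtcaACGTGcggttcgcgcac
Hif1a, chr12:73907721-73907749, plus strand: acacagacaagcACGTGagcggggcagct
Hif1a, chr12:73907785-73907813, plus strand: tggctgagagcaACGTGggctggggtggg
ACGTG lay 229 bases before the start in Egln3, 68 in Egln1 and 48 in Egln2. In Hif1a the site 134 bases before the start reads CACGTG, so that the core is found there on both strands, and the further site lies at 70 bases. Of the 29 bases printed for Egln1, 19 lie in the first exon of the GENCODE model, the whole core among them. The RefSeq start of Hif1a lies inside the GENCODE gene. The stretch before Egln3, the member that moved most, is given whole (chr12:54203875-54204124, minus strand), with the core in capitals.
Egln3: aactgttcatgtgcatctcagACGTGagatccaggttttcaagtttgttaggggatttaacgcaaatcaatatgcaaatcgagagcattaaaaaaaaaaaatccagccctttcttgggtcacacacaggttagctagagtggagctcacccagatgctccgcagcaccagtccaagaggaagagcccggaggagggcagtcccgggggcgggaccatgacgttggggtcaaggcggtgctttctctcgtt
Since phosphodiesterase 2A breaks down cAMP, the cAMP response element TGACGTCA, which is its own reverse complement, was searched in the same stretches. It lay before 1 member, Arnt, and before 1.55% of all starts.
Arnt, chr3:95434141-95434168, plus strand: tgcatttcacTGACGTCAatttggttat
It lies 239 bases before the start of Arnt and is in capitals with 10 bases on each side. The shorter core TGACG, which the full element contains on both strands, lay before 3 members, Arnt, Egln2 and Egln3, and before 17.8% of all starts. The matches describe the letters only.

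Across the 9 genes, 4 passed an adjusted p under 0.05 between the genotypes by edgeR's quasi-likelihood test, against 14.6% of all genes tested. Egln3, Egln1 and Arnt were higher in Pde2A-/- hearts and Hif1a was lower, against 8.93% of all genes higher and 5.67% lower. With a fold change of at least 2 asked as well, 1 member passed, Egln3, against 2.59% of all genes. The hearts of the genotypes did not overlap for 3 members, Egln3 and Arnt above and Hif1a below, against 8.49% of all genes, 5.38% above and 3.11% below. The median log2 fold change of the 9 members was 0.16, and that of all genes tested was -0.02. DESeq2 on the same counts passed 7 members. Of all 24177 genes it passed 2791 as higher and 2354 as lower, against 2160 and 1372 by edgeR. The test without Pde2A+/+ replicates 7 and 11 passed 2 members, Egln3 and Hif1a. Of all 23260 genes in that fit 1486 passed as higher and 744 as lower. The same 2 members passed without Pde2A-/- replicate D, where 1288 of 23862 genes passed as higher and 414 as lower. The p-values set the difference between genotypes against the spread between these hearts. The labels do not say whether embryos shared a litter, so a likeness within litters is not allowed for.

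**Figure D1:**
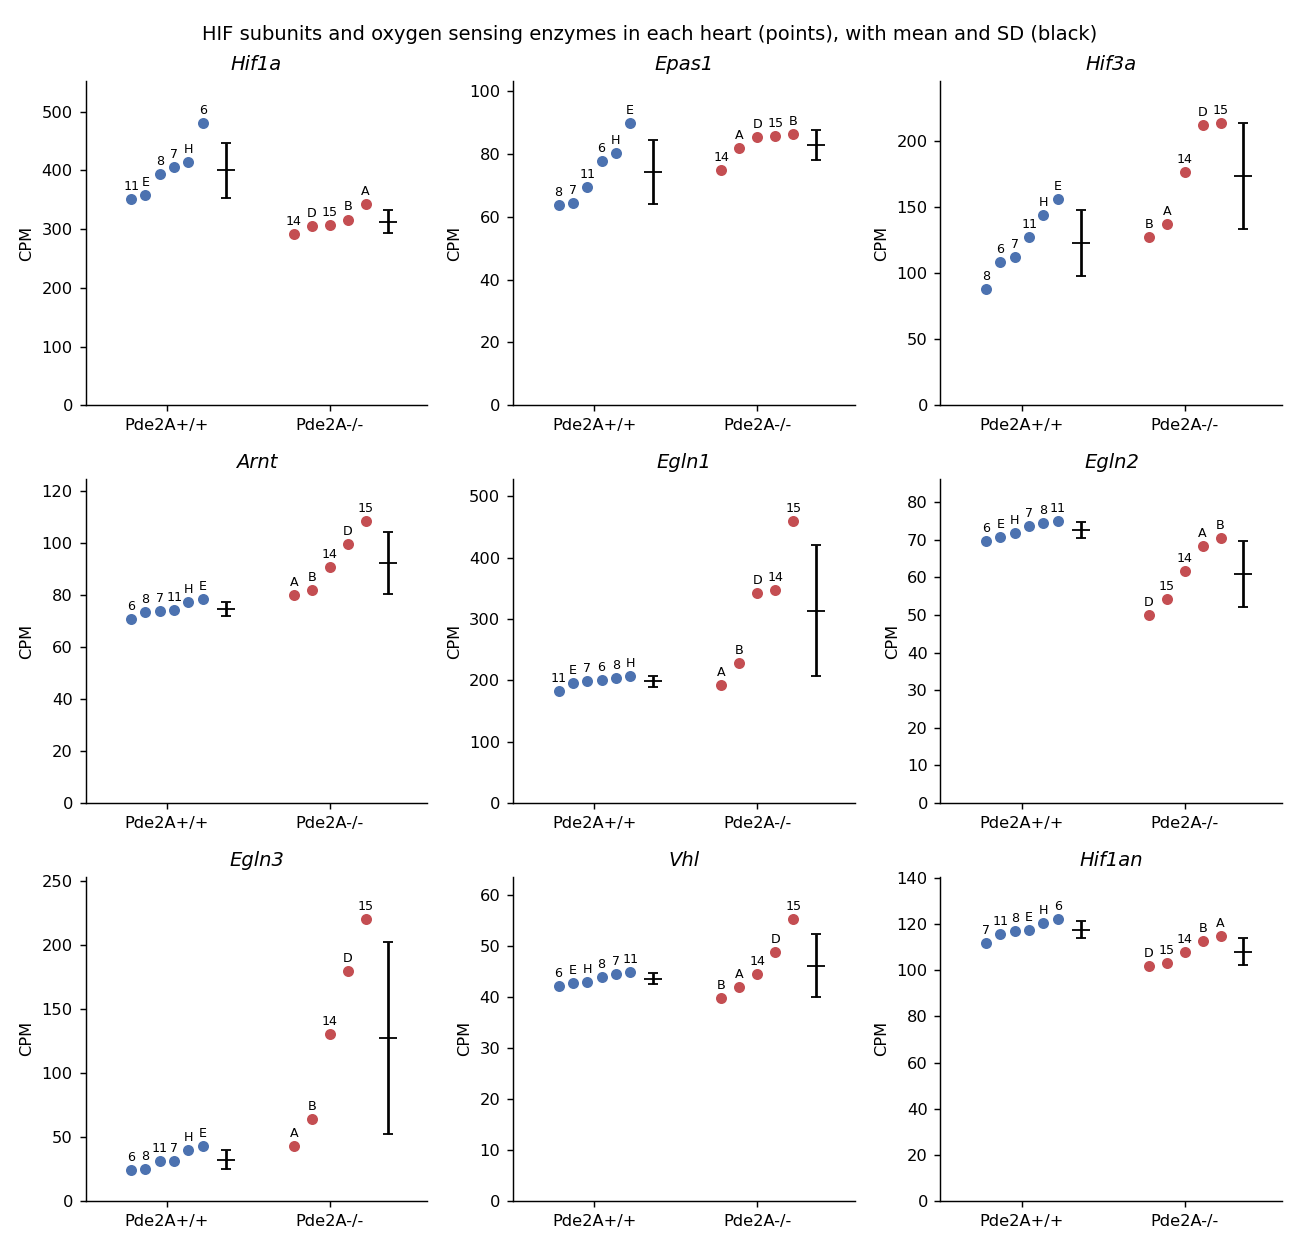
Levels of the 9 members in each heart, in CPM on an axis from 0, with Pde2A+/+ hearts in blue, Pde2A-/- hearts in red, replicate names above the points and the mean ± SD in black (n = 6 and n = 5). Egln3 and Arnt lay above every Pde2A+/+ heart and Hif1a below every one in all 5 Pde2A-/- hearts, while Epas1 and Vhl overlapped.

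The prolyl hydroxylase genes went apart. Egln3, on chromosome 12 from 54178981 to 54203860 on the minus strand (ENSMUSG00000035105), encodes PHD3, the PHD best known for its strong rise in low oxygen. Its level was 43.1, 64.1, 131, 180.0 and 221 CPM in Pde2A-/- replicates A, B, 14, D and 15, and in Pde2A+/+ hearts the lowest was 24.4, the median 31.2 and the highest 42.7 CPM. All 5 Pde2A-/- hearts were above all Pde2A+/+ hearts, but replicate A only just, and the spread among the Pde2A-/- hearts was wide. The means were 128 ± 75.1 CPM (SD, n = 5) and 32.3 ± 7.59 CPM (SD, n = 6). Egln3 was 3.95-fold higher in Pde2A-/- hearts (95% interval 2.35 to 6.64, log2 fold change 1.98, SE 0.35, adjusted p = 0.00316). It passed in every fit run, with a log2 fold change between 1.70 and 2.21 when any 1 heart was left out.

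Egln1, on chromosome 8 from 124908587 to 124949324 on the minus strand (ENSMUSG00000031987), encodes PHD2, the main brake on HIF-1α in most cells. Its level was 192, 229, 347, 342 and 459.8 CPM in replicates A, B, 14, D and 15, against 182, 200.1 and 207 CPM as the lowest, median and highest Pde2A+/+ heart. Replicate A lay inside the Pde2A+/+ range and the other 4 above it. The Pde2A+/+ hearts differed little, with a coefficient of variation of 4.41%, against 33.9% in the Pde2A-/- hearts. Egln1 was 1.58-fold higher (95% interval 1.23 to 2.04, log2 fold change 0.66, SE 0.17, adjusted p = 0.0229). The call rests on single hearts: the adjusted p was 0.0608 without Pde2A-/- replicate 14, 0.0638 without D, 0.0558 without 15 and 0.0701 without Pde2A+/+ replicates 7 and 11.

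Egln2, on chromosome 7 from 27158658 to 27166802 on the minus strand (ENSMUSG00000058709), encodes PHD1, which HIF is not known to induce. Its level was 68.3, 70.5, 61.8, 50.05 and 54.4 CPM in replicates A, B, 14, D and 15, and 69.6, 72.7 and 75.0 CPM as the lowest, median and highest Pde2A+/+ heart. Here 4 Pde2A-/- hearts lay below the Pde2A+/+ range, and replicate B lay within it. The log2 fold change was -0.25 (95% interval -0.42 to -0.08, SE 0.08) with an adjusted p of 0.0506, which did not pass. It passed with DESeq2, at an adjusted p of 0.0165, and in 5 other settings and 2 of the 11 fits with a heart left out. Of its exons 11 bases lie on Cyp2t4 on the opposite strand, which strand-aware counting keeps apart.

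The ratio of Egln3 to Egln2 within a heart moved from a mean log2 of -1.20 ± 0.35 (SD, n = 6) in Pde2A+/+ to 0.83 ± 1.19 (SD, n = 5) in Pde2A-/- hearts. The ranges did not overlap, at -1.59 to -0.73 and -0.66 to 2.02, and the difference was 2.03 (exact permutation test, two-sided, p = 0.00433, 0.013 after adjustment over 4 ratios), where 0.00433 is the smallest p that 462 splits of the hearts allow. The ratio of Egln1 to Egln2 was higher by 0.86 (exact permutation p = 0.013, adjusted p = 0.013), with 4 of 5 Pde2A-/- hearts above all Pde2A+/+ hearts. The ranges of this ratio overlapped, at 1.28 to 1.53 in Pde2A+/+ and 1.49 to 3.08 in Pde2A-/- hearts. Both ratios thus differed between the genotypes, and only that of Egln3 to Egln2 separated every heart.

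**Figure D2:**
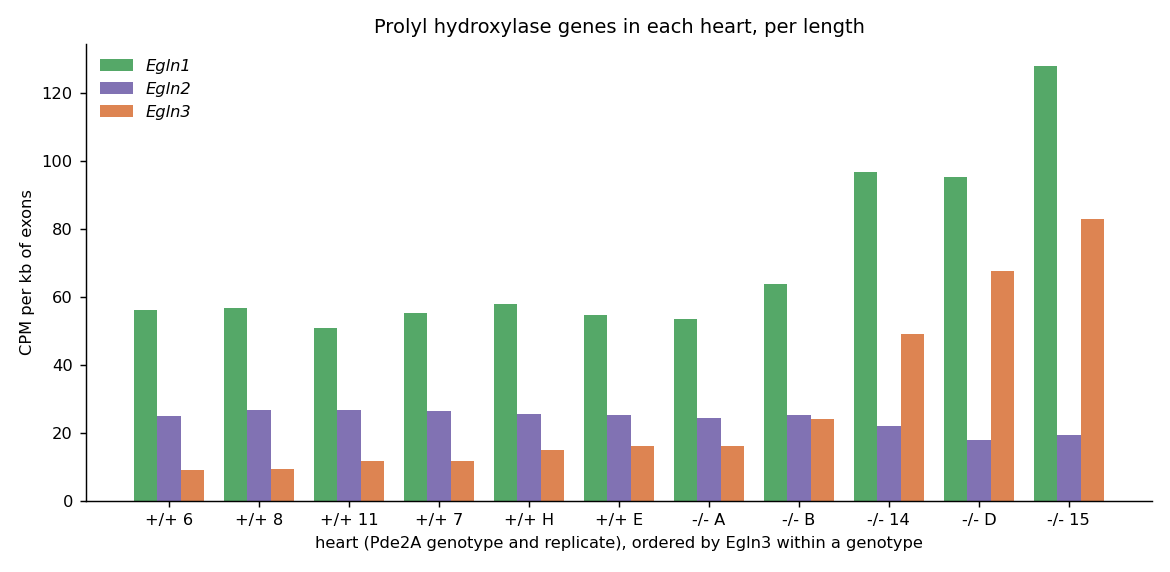
Levels of the 3 prolyl hydroxylase genes in each heart, in CPM per kb of exons on an axis from 0, with hearts ordered by Egln3 within a genotype. Egln1 was the highest of the 3 in all 11 hearts, and Egln3 was above Egln2 in Pde2A-/- replicates 14, D and 15.

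Set per kb of exons, so that the genes can be compared, the PHD genes together had a level of 93.3 ± 3.48 CPM per kb (SD, n = 6) in Pde2A+/+ and 157 ± 54.6 CPM per kb (SD, n = 5) in Pde2A-/- hearts, with ranges of 89.2 to 98.3 and 94.0 to 230.2. Egln3 made up 13.0% ± 2.68 (SD, n = 6) of this sum in Pde2A+/+ hearts and 28.2% ± 8.87 (SD, n = 5) in Pde2A-/- hearts. The share of Egln2 was 27.8% ± 1.48 (SD, n = 6) and 15.9% ± 7.76 (SD, n = 5), and that of Egln1 was 59.2% ± 2.20 (SD, n = 6) and 55.8% ± 1.90 (SD, n = 5). So the share of Egln1 varied least between the genotypes, while those of the other PHD genes changed places in the mean.

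Among the alpha subunits, Hif1a was lower. Hif1a, on chromosome 12 from 73901375 to 73947530 on the plus strand (ENSMUSG00000021109), encodes HIF-1α. Its level was 343, 316, 292, 305 and 306 CPM in Pde2A-/- replicates A, B, 14, D and 15, and 351, 399 and 480.0 CPM as the lowest, median and highest Pde2A+/+ heart. All 5 Pde2A-/- hearts were below all Pde2A+/+ hearts, and here the Pde2A-/- hearts were the tighter group. The means were 313 ± 19.3 CPM (SD, n = 5) and 400.2 ± 46.6 CPM (SD, n = 6), a fold of 0.781 (95% interval 0.698 to 0.875, log2 fold change -0.36, SE 0.08, adjusted p = 0.00957). It passed in every alternative run, with a log2 fold change between -0.39 and -0.29 when any 1 heart was left out.

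An antisense gene, Gm15283 (ENSMUSG00000087700), runs over Hif1a on the opposite strand and shares 330 bases, 5.60%, with its exons. It was looked at after its values were seen. It had 49, 82, 143, 137 and 175 reads in replicates A, B, 14, D and 15, and between 26 and 79 reads in Pde2A+/+ hearts, so that 3 of 5 Pde2A-/- hearts were above all of the others. Its log2 fold change was 1.24 (SE 0.33, adjusted p = 0.0263), against -0.36 for Hif1a. The adjusted p was 0.0651 without Pde2A-/- replicate 14, 0.0724 without D and 0.0772 without 15, 0.0561 without Pde2A+/+ replicate 8, 0.052 without E and 0.0724 without replicates 7 and 11. Its level was low, at 3.08 ± 1.44 CPM (SD, n = 5) and 1.30 ± 0.46 CPM (SD, n = 6). A same-strand gene, Gm49321, shares 148 bases with Hif1a, and reads on both genes are counted for neither.

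Epas1, on chromosome 17 from 86753700 to 86833410 on the plus strand (ENSMUSG00000024140), encodes HIF-2α, which is prominent in endothelium. Its level was 82.0, 86.4, 75.0, 85.5 and 85.7 CPM in replicates A, B, 14, D and 15, and 63.6, 73.5 and 89.7 CPM as the lowest, median and highest Pde2A+/+ heart. All Pde2A-/- hearts lay within the Pde2A+/+ range. The log2 fold change was 0.16 (95% interval -0.02 to 0.34, adjusted p = 0.223), and it passed in none of the alternatives run. The summed level of 8 endothelial genes was higher in all 5 Pde2A-/- hearts, at 1432 to 1533 CPM against 1137 to 1349 CPM, and its part in the level of Epas1 was not tested. In a whole heart, a change in the number of cells of a type and a change of RNA per cell cannot be told apart.

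Hif3a, on chromosome 7 from 17031507 to 17062427 on the minus strand (ENSMUSG00000004328), encodes HIF-3α, some forms of which hold back the other alpha subunits. Its level was 137, 127, 176, 212 and 213 CPM in replicates A, B, 14, D and 15, and 88.0, 119.8 and 156 CPM as the lowest, median and highest Pde2A+/+ heart. The hearts overlapped, with 3 of 5 Pde2A-/- hearts above the Pde2A+/+ range, and both genotypes spread widely. The log2 fold change was 0.50 (95% interval 0.15 to 0.85, SE 0.16) with an adjusted p of 0.0556, which did not pass. It passed with DESeq2, at an adjusted p of 0.0153, with edgeR's filterByExpr, at 0.0465, and with Xist as a covariate, at 0.0232. It also passed in 3 of the 11 fits with a heart left out, without Pde2A-/- replicate A (0.0267) or B (0.0228) or Pde2A+/+ replicate E (0.0401).

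Arnt, on chromosome 3 from 95434388 to 95497240 on the plus strand (ENSMUSG00000015522), encodes a beta subunit with which all 3 alpha subunits can pair. Its level was 80.3, 82.1, 90.8, 99.6 and 109 CPM in replicates A, B, 14, D and 15, and 71.0, 74.0 and 78.5 CPM as the lowest, median and highest Pde2A+/+ heart. The genotypes did not overlap. Arnt was 1.23-fold higher (95% interval 1.11 to 1.37, log2 fold change 0.30, SE 0.07, adjusted p = 0.0168). The adjusted p was 0.0545 without Pde2A-/- replicate D and 0.0559 without Pde2A+/+ replicates 7 and 11.

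The balance of the alpha subunits therefore differed. The log2 ratio of Epas1 to Hif1a was -2.43 ± 0.26 (SD, n = 6) in Pde2A+/+ and -1.91 ± 0.10 (SD, n = 5) in Pde2A-/- hearts, a difference of 0.52 (exact permutation test, two-sided, p = 0.00866, adjusted p = 0.013). That of Hif3a to Hif1a was higher by 0.84 (exact permutation p = 0.013, adjusted p = 0.013). In these ratios 4 and 3 of the 5 Pde2A-/- hearts lay above all Pde2A+/+ hearts. All 4 ratios kept their call when any 1 heart was left out.

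Vhl and Hif1an moved little. Vhl, on chromosome 6 from 113623959 to 113631633 on the plus strand (ENSMUSG00000033933), had 41.9, 39.8, 44.6, 48.9 and 55.3 CPM in Pde2A-/- replicates A, B, 14, D and 15, and 42.1, 43.4 and 45.0 CPM as the lowest, median and highest Pde2A+/+ heart. With 2 Pde2A-/- hearts above and 2 below the Pde2A+/+ range, the log2 fold change was 0.08 (95% interval -0.08 to 0.24, adjusted p = 0.502). Hif1an, on chromosome 19 from 44562850 to 44576274 on the plus strand (ENSMUSG00000036450), had 115, 113, 108, 102 and 103 CPM in the same order, and 112, 117 and 122 CPM in Pde2A+/+ hearts. Replicates D and 15, the highest in Egln3, were the lowest here. Its log2 fold change was -0.12 (95% interval -0.22 to -0.02, adjusted p = 0.0867), and it passed with DESeq2, at 0.0268, and with filterByExpr, at 0.0471.

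**Figure D3:**
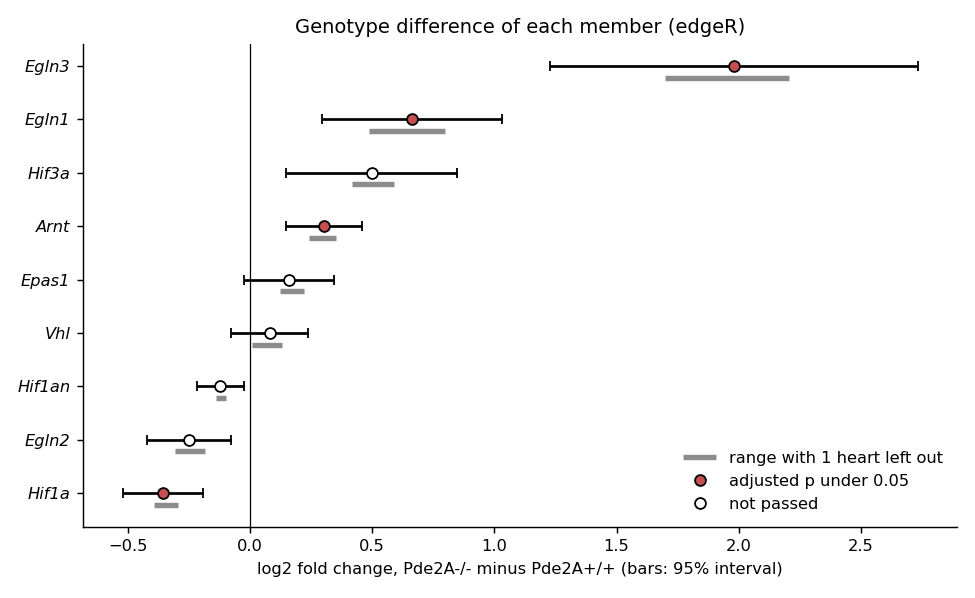
Log2 fold change of each member between Pde2A-/- and Pde2A+/+ hearts by edgeR, with the 95% interval as a black bar and the range over the 11 fits with 1 heart left out as a grey bar. Filled points passed an adjusted p under 0.05: Egln3 at 1.98, Egln1 at 0.66, Arnt at 0.30 and Hif1a at -0.36.

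Per kb of exons, the order of the members in Pde2A+/+ hearts was Hif1a (67.9 ± 7.90 CPM per kb), Egln1 (55.2 ± 2.44), Egln2 (25.9 ± 0.76), Hif3a (18.3 ± 3.71), Hif1an (17.8 ± 0.56), Vhl (14.5 ± 0.36), Epas1 (13.3 ± 1.83), Egln3 (12.1 ± 2.85) and Arnt (9.34 ± 0.34), each as CPM per kb with the SD over 6 hearts. The first 3 kept their rank in each of the 6 hearts, and Arnt was last in each. With the longest transcript as the length in place of all exons, Arnt moved to rank 6 and Egln3 to rank 9. The ranges of Hif3a and Hif1an overlapped, and so did those of Vhl, Epas1 and Egln3 next to each other in the order. In Pde2A-/- hearts Egln1 came first in the mean, at 87.4 ± 29.6 CPM per kb (SD, n = 5), then Hif1a at 53.0 ± 3.27 and Egln3 at 48.0 ± 28.2, with ranges that overlapped. Egln3 stood between rank 2 and rank 6 in single Pde2A-/- hearts, and Arnt stayed last in all 5.

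Egln3, Egln1 and Arnt were lowest in replicate A and highest in replicate 15 among the Pde2A-/- hearts. Set against the Pde2A+/+ mean on the log2 scale, Egln3 stood at 0.45, 1.02, 2.05, 2.51 and 2.80 in replicates A, B, 14, D and 15, and Arnt at 0.10, 0.14, 0.28, 0.41 and 0.54. Egln1 stood at -0.05, 0.21, 0.81, 0.79 and 1.21 and Egln2 at -0.09, -0.04, -0.23, -0.53 and -0.42 in the same hearts. The mean of 19 HIF target genes, none of them a member, stood at 0.08, 0.46, 1.01, 1.26 and 1.505. Hif1a did not share this order, at -0.21, -0.33, -0.45, -0.38 and -0.38. Replicates A and B also stood apart from 14, D and 15 in genes that passed no test or fell. Hif3a stood at 0.19, 0.08, 0.55, 0.81 and 0.82 and Vhl at -0.06, -0.13, 0.03, 0.17 and 0.35. The mean of 4 partners of VHL in its ligase stood at -0.10, -0.08, -0.21, -0.26 and -0.31. Epas1 did not show this split, at 0.16, 0.23, 0.03, 0.22 and 0.22. These hearts share their libraries and are a description of 5 points.

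**Figure D4:**
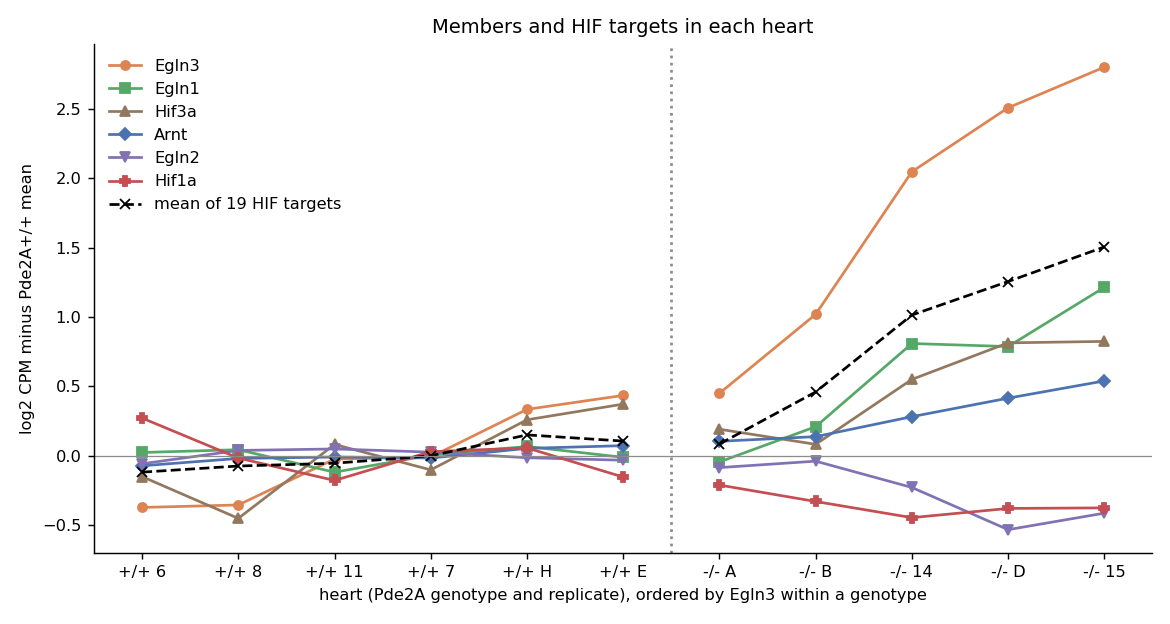
Difference of each heart from the Pde2A+/+ mean in log2 CPM, for 6 members and for the mean of 19 HIF target genes (dashed), with hearts ordered by Egln3 within a genotype and the dotted line between genotypes. From replicate A to replicate 15, Egln3 ran from 0.45 to 2.80, the HIF targets from 0.08 to 1.505 and Arnt from 0.10 to 0.54, while Hif1a stayed between -0.45 and -0.21.

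Markers of other cells moved with genotype too. The mean log2 CPM of 7 macrophage genes stood above the Pde2A+/+ mean by 0.70, 0.85, 1.07, 1.13 and 1.12 in replicates A, B, 14, D and 15, and their sum was 180.1 to 235 CPM against 88.9 to 139.6 CPM. All 7 passed as higher, where 8.93% of all genes tested did. Of 8 erythroid genes 7 passed as higher, and their mean stood at 2.57, 3.59, 3.29, 3.10 and 3.25 in the same hearts, with sums of 459.8 to 937 CPM against 108 to 489 CPM. The defining marker Hemgn had 47.9 ± 11.5 CPM (SD, n = 5) against 1.54 ± 1.03 CPM (SD, n = 6) and was the gene of this list with the largest rise. Alas2, the haem synthesis enzyme of red cells, had 124 ± 25.7 CPM (SD, n = 5) against 189 ± 103 CPM (SD, n = 6), a log2 fold change of -0.60 (adjusted p = 0.221), and was the erythroid gene that did not pass. Their part in the levels of the members was not tested.

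The replicates are named by letters or by numbers, and the labels do not say why. Among hearts named by letters, 3 Pde2A-/- and 2 Pde2A+/+, the difference in mean log2 CPM was 0.94 for Egln3, 0.29 for Egln1, 0.16 for Arnt and -0.26 for Hif1a. Among those named by numbers, 2 Pde2A-/- and 4 Pde2A+/+, it was 2.62, 1.02, 0.44 and -0.44 for the same genes. Every one kept its direction in both. For Hif3a the values were 0.05 and 0.84, and for Epas1 they were -0.00 and 0.23.

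The next genes are the partners of VHL in its ligase. Of Elob, Eloc, Cul2 and Rbx1, 3 of 4 passed as lower and none as higher, with a median log2 fold change of -0.18. Over all genes tested, 5.67% passed as lower and 8.93% as higher. Elob, which with Eloc links VHL to the cullin, fell from 88.2 ± 4.34 CPM (SD, n = 6) to 74.8 ± 7.16 CPM (SD, n = 5), a log2 fold change of -0.24 (adjusted p = 0.0244). Eloc fell by 0.19 and Cul2, the scaffold, by 0.18 on the log2 scale (adjusted p = 0.0389 and 0.0421). Rbx1, the RING subunit, stood at -0.16 (adjusted p = 0.0596) and Vhl itself at 0.08, and neither passed. The count of 3 fell to 0 without Pde2A-/- replicate 14, D or 15 or Pde2A+/+ replicate 6, and to 1 without Pde2A+/+ replicate 7, 8, H or E.

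Of 6 coactivators and regulators of HIF transactivation, 1 passed as higher and 0 as lower, with a median of 0.09. It was Cited4, of the family that competes with HIF for the coactivators CBP and p300, at a log2 fold change of 0.51 (SE 0.10, adjusted p = 0.00766), while Ep300 and Crebbp stood at 0.08 and -0.00. Of 12 genes for proteins that act on the stability of HIF alpha or of the PHD enzymes, 1 passed as higher and 3 as lower, with a median of 0.01. Siah1b, a relative of the ligases that degrade PHD enzymes, had a log2 fold change of -0.36 (adjusted p = 0.0274). Usp33 and Usp20, both deubiquitinases that bind VHL, went opposite ways, at 0.26 (adjusted p = 0.00495) and -0.26 (adjusted p = 0.0416). Fkbp8, which anchors PHD2, was lower in all 5 Pde2A-/- hearts than in any Pde2A+/+ heart, at a log2 fold change of -0.15 (adjusted p = 0.0382). Of 10 tested genes for other bHLH-PAS factors, the family of HIF, 1 passed as higher, Npas3 at 0.61 (adjusted p = 0.0308), and 0 as lower. Over all genes tested, 8.93% passed as higher and 5.67% as lower. The count of 1 higher gene in these lists of 6, 12 and 10 lies near that share. Arnt2, the paralogue of Arnt, stood at 0.07 (adjusted p = 0.656). Npas1 had too few reads to be tested. Npas3 and the 3 lower genes of the stability list passed in none of the fits without Pde2A-/- replicate 14, D or 15 or Pde2A+/+ replicate 6, and Npas3 in none without Pde2A+/+ replicate 7, 8 or H. Of the 3 lower stability genes 1 passed without Pde2A+/+ replicate 7, 8, H or E, or without 7 and 11 together, and Npas3 did not pass without these 2 (adjusted p = 0.0575). Cited4 and Usp33 passed in all 11 fits with a heart left out and in all 9 other alternatives run.

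Of 14 other dioxygenases that use oxygen and 2-oxoglutarate as the PHD enzymes do, 10 passed as higher and 0 as lower. Over all genes tested these shares were 8.93% and 5.67%. The median log2 fold change of the 14 was 0.54. P4ha2 and P4ha1, catalytic subunits of collagen prolyl hydroxylase, had log2 fold changes of 1.19 (SE 0.26, adjusted p = 0.0119) and 1.16 (SE 0.24, adjusted p = 0.00766), and Plod2, a collagen lysyl hydroxylase, had 0.90 (SE 0.20, adjusted p = 0.0119). Their summed level was 1236 to 2139 CPM in Pde2A-/- and 1062 to 1191 CPM in Pde2A+/+ hearts. The count fell to 5 without Pde2A-/- replicate 14, D or 15, and to 5 without Pde2A+/+ replicates 7 and 11. Several of these genes are HIF targets themselves.

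Of 19 textbook HIF targets 16 passed as higher and 0 as lower, against 8.93% and 5.67% of all genes tested, with a median of 0.89. Ndrg1, a stress gene, had 170.9 ± 125 CPM (SD, n = 5) against 34.4 ± 9.10 CPM (SD, n = 6), a log2 fold change of 2.31 (adjusted p = 0.00618). Adm, the vasodilator peptide adrenomedullin, and Bhlhe40, a transcriptional repressor, had log2 fold changes of 1.59 (adjusted p = 0.0134) and 1.49 (adjusted p = 0.00286). The 3 that did not pass were Bnip3l at 0.37, Car9 at 0.69 and Higd1a at 0.31. The count was 10 without Pde2A-/- replicate D and 11 without replicate 15 or without Pde2A+/+ replicates 7 and 11. The lists were written from general knowledge with earlier results of these hearts known, and hypoxia genes had been seen to be higher in them, so the count is no independent evidence. Where a list is given with 0 genes in a direction by edgeR, 0 passed that way at an unadjusted p under 0.05 and 0 with DESeq2.

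**Figure D5:**
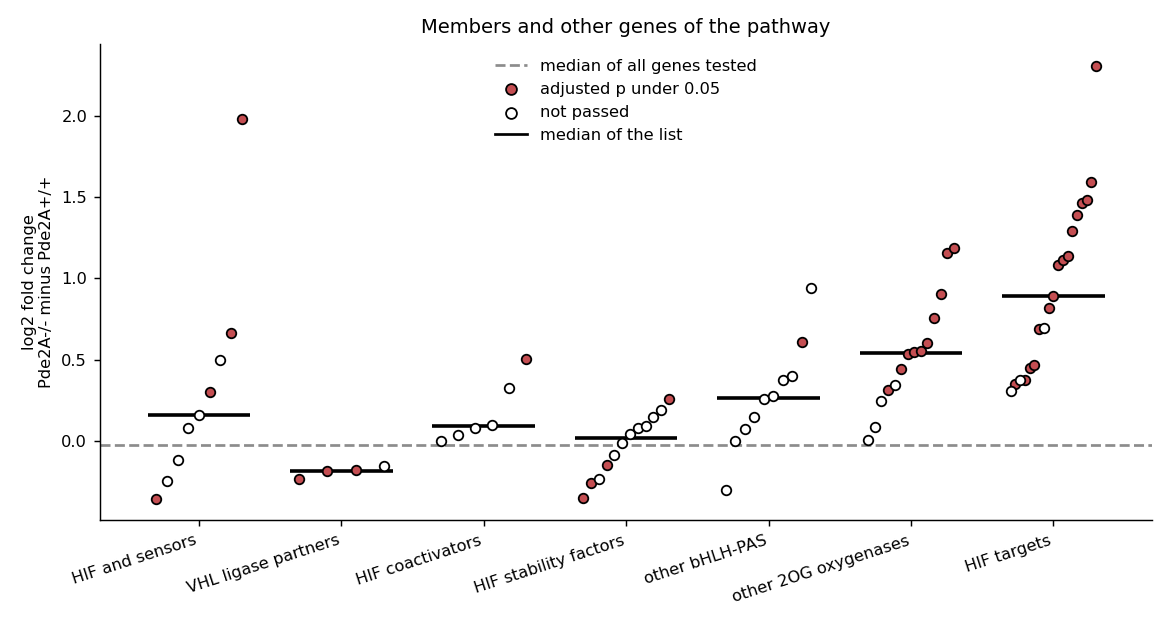
Log2 fold change of each tested gene between Pde2A-/- and Pde2A+/+ hearts for the 9 members and 6 lists of other genes of the pathway, with filled points for an adjusted p under 0.05, a black bar at the median of each list and a dashed line at the median of all genes tested (-0.02). The HIF targets had a median of 0.89, the other 2-oxoglutarate dioxygenases 0.54 and the VHL ligase partners -0.18.

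The genes whose levels followed a member most closely were searched among the 14015 genes whose mean reached 1 CPM, by the root mean square of the difference between profiles in log2 CPM over the 11 hearts. For Egln3 they were Mt1 (0.178), Rora (0.220), Ndrg1 (0.252), Tmem171 (0.314) and Adm (0.333), against a median of 1.36 over all candidates. Mt1 encodes a metallothionein and had a log2 fold change of 1.90. The profiles hold the difference between the genotypes, so a fold change near that of Egln3 follows from the choice. For Egln1 they were Slc37a4 (0.0395), Plekha2 (0.0741), Slc2a4 (0.0748), Ago2 (0.0772) and Jmjd6 (0.0837), against a median of 0.534. Slc37a4 encodes the glucose-6-phosphate transporter of the endoplasmic reticulum and Slc2a4 the insulin-responsive glucose transporter. Their log2 fold changes, 0.67 and 0.68, lie near that of Egln1 through the choice in the same way.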

How the data were processed

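Stranded poly(A) libraries from 11 embryonic hearts were sequenced in single-end mode on a NextSeq instrument. Per the labels and methods, the authors mapped reads to GRCm38 (mm10) with STAR, whose version is not given in the sources used here, and deposited raw counts per gene for both strands, the sense strand and the other strand. Reads on more than 1 gene are in none of them. The sense counts were used, 35865537 to 42835382 per heart, and 19.6% to 22.4% of reads were, for any reason, not counted for a gene. The 95% intervals are confidence intervals of the difference between genotypes, judged from the spread between hearts, and single hearts can lie outside them.

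Gene models were GENCODE M21 (55227 of 55487 identifiers matched). A minimum of 10 counts per gene, summed over the hearts, was asked. edgeR 4.0.16 in R 4.3.3 (TMM, quasi-likelihood test, Benjamini-Hochberg over 24177 genes) compared the genotypes, CPM are TMM-normalized, and log2 CPM used a prior count of 2. Levels per kb used merged exons. 4 log2 ratios between members were compared by exact permutation tests with SciPy 1.17.1. DESeq2 1.42.0 was an alternative. On simulated data with 200 of 23685 genes changed, edgeR recovered 93 of 100 with a log2 change of 1 and 67 of 100 with a log2 change of 0.5, with 5 wrong calls. DESeq2 recovered 96 and 76 of 100, with 41 wrong calls. With no gene changed, edgeR made 0 wrong calls and DESeq2 made 7. A pass with DESeq2 alone was thus the weaker call in this simulation. The simulation gave both genotypes the same spread per gene, while that of Egln1 differed between them. It also changed fewer genes than passed here, so its error rates may not hold for these hearts. The members and the gene lists were chosen with earlier results of these data known. Named genes are the 9 members in every heart, in each pathway list up to 3 passing genes with the largest change, and the 5 genes nearest in profile to each of the 2 members that changed most. Gm15283, the remaining named genes of the lists and the omission of Pde2A+/+ replicates 7 and 11 were chosen after their values were seen. Aldoa, which has 2 identifiers, was taken by the one with more counts.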

Additional observations from a re-analysis of the deposited data

Results flagged for a closer look

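Hif1a also had a larger mean share of reads on its other strand in Pde2A-/- than in Pde2A+/+ hearts. The comparisons above do not use this count. The counts overlapped, at 100, 113, 238, 235 and 196 in replicates A, B, 14, D and 15 and 87 to 209 in Pde2A+/+ hearts. The share also rises where Hif1a has fewer sense reads, as it had in Pde2A-/- hearts. Reads on the other strand made up 1.48% of its reads in the mean of Pde2A-/- hearts and 0.977% in Pde2A+/+ hearts. Set against the median of 7251 well covered genes in the same heart, the excess was 0.543 percentage points in the mean of Pde2A-/- hearts and 0.122 in Pde2A+/+ hearts. It was highest in Pde2A-/- replicate 15, at 0.944, lowest in replicate A, at 0.0017, and at most 0.295 in any Pde2A+/+ heart. The antisense gene Gm15283 lies on that strand, and the difference was not tested. No heart stood apart within its genotype in the 26 sets of values for the members and their ratios that were examined by Dixon's rule, which flags about 1 set in 20 by chance.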

How the results depend on the processing

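No paired analysis was possible because the genotypes share no replicate number. No member and no ratio changed direction in any fit run for it. Egln3 and Hif1a kept their call in all 20 alternatives, and Epas1 and Vhl passed in none. The 4 ratios kept theirs with a prior count of 0.5, with both strands and with each heart left out, the alternatives run for them. The causes of the changes were not tested. Where 4 members passed, 7 passed with DESeq2 and with filterByExpr, 2 (1 of them higher) without Pde2A+/+ replicates 7 and 11 and 1 with a fold of at least 2 asked. The calls over all genes moved too, with filterByExpr passing 2324 as higher and 1884 as lower of 16853 tested. Of the lower members, 3 passed with DESeq2 and with filterByExpr and 2 with DESeq2 size factors, both strands counted, the globins omitted or Xist as a covariate, against 1. The log2 fold change of Egln2 in these 6 settings, where it passed, was -0.25, -0.25, -0.25, -0.24, -0.25 and -0.28. Hif3a passed at 0.50 with DESeq2, 0.49 with filterByExpr and 0.59 with Xist, and Hif1an at -0.12 with DESeq2 and -0.13 with filterByExpr. Without Pde2A+/+ replicates 7 and 11, Arnt (0.29) and Egln1 (0.63) did not pass, and 18 genes of the 6 pathway lists passed as higher in place of 29. With any 1 heart left out, 2 to 6 members passed, of which 1 to 4 were higher and 1 to 2 lower. The log2 fold change then ran from 0.42 to 0.59 for Hif3a, 0.24 to 0.35 for Arnt, 0.49 to 0.80 for Egln1 and -0.31 to -0.19 for Egln2, and 17 to 34 pathway genes passed as higher and 0 to 8 as lower, against 29 and 6. The highest member level per kb in Pde2A+/+ hearts was 7.27 times the lowest, 6.98 times with the longest transcript as the length and 6.50 times with reads of both strands.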
